A study of Rattus norvegicus with 9 samples.

Results

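Chemokines are small secreted or membrane-bound proteins that steer leukocytes and microglia through G protein-coupled receptors. Their 10 genes described here were Cxcl1, Cxcl2, Cxcl9, Cxcl10, Cxcl11, Cxcl12, Cxcl16, Ccl2, Ccl7 and Cx3cl1, found by symbol among the 34092 genes of the expression table. They had been chosen by how they differed between vehicle, NPCT and PCT in these same libraries, with Cxcl1 and Cxcl10 moving one way and Cxcl9 the other. Their own changes are therefore given as a description, and where they are counted against the threshold used for all genes nothing is read from the count. Of the 10 genes, 9 belong to the CXC or CC family, and Cx3cl1 is the CX3C chemokine.

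The cells were wild-type rat primary hippocampal neurons from fetuses of embryonic day 17, exposed at 7 days in vitro to vehicle, to 1 nM human NPCT or to 1 nM human PCT. Both peptides were given for 24 h, and 3 RNA libraries were sequenced per group. NPCT, or aminoprocalcitonin, is cleaved from the N terminus of procalcitonin, PCT, so the comparison sets a fragment beside its parent peptide at the same dose and time. The cultures received no mitotic inhibitor, so they could hold dividing glia, and RNA came from pooled triplicates by the methods. Whether the 3 libraries of a group were independent cultures is not stated, and the spread between them may be technical.

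The libraries held between 13573056 and 17211642 fragments on genes. NPCT replicate 3 and PCT replicate 3 stood apart from their groups. The chi-square of fragments over genes per degree of freedom, near 1 under sampling alone, was 4.16 to 4.97 between control libraries and 4.38 between NPCT replicates 1 and 2. It reached 10.6 and 10.8 in the pairs with NPCT replicate 3, and 21.6 and 18.9 in the pairs with PCT replicate 3, against 6.38 between PCT replicates 1 and 2. The summed level of 9 microglial markers ranged from 26.2 to 35.9 FPKM in the control libraries and from 11.9 to 15.5 FPKM with PCT. It was 38.0 and 32.8 FPKM in NPCT replicates 1 and 2 and 148 FPKM in NPCT replicate 3. Neuronal markers such as Map2 (125 to 199 FPKM) and the astrocyte marker Gfap (734 to 938 FPKM) were high in every library. So was the oligodendrocyte lineage marker Olig1 (185 to 279 FPKM). The RNA therefore came from neurons and glia together, and the levels below are those of whole cultures. The 5 endothelial markers in the table summed to 1.06 to 1.83 FPKM, with Cldn5 listed at 0 throughout and Kdr at 0.777 to 1.50 FPKM. In such bulk RNA, fewer cells of a type and less RNA per cell cannot be told apart.

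Chemokine families are named for the spacing of cysteines near the N terminus, and their receptors are named after the families. Cxcl1 and Cxcl2 bind Cxcr2 and attract neutrophils. Cxcl9, Cxcl10 and Cxcl11 share the receptor Cxcr3, attract activated T cells and are classical targets of interferon gamma, while Cxcl10 also responds to type I interferon and to NF-kB. Ccl2 and Ccl7 bind Ccr2 and recruit monocytes. Cxcl12 acts through Cxcr4 and Ackr3 and guides migrating neurons, Cxcl16 is a membrane-bound ligand of Cxcr6, and Cx3cl1, or fractalkine, is made by neurons and binds Cx3cr1 on microglia.

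The promoters of the 3 genes that moved most with PCT are shown because Cxcl1 and Cxcl10 rose and Cxcl9 fell although Cxcl9 and Cxcl10 are neighbours. They are the 250 bases before each RefSeq gene start in GRCr8, on the gene's strand, at chr14:17479322-17479571 (minus strand) for Cxcl1, chr14:15988816-15989065 (plus strand) for Cxcl10 and chr14:16006916-16007165 (plus strand) for Cxcl9. Capitals mark every match, on either strand, to an NF-kB-type motif GGGNNNTTCC, an interferon response-type motif GAAANNGAAA, an interferon gamma-type motif TTCNNNGAA or an AP-1-type motif TGANTCA, where N is any base.
Cxcl1: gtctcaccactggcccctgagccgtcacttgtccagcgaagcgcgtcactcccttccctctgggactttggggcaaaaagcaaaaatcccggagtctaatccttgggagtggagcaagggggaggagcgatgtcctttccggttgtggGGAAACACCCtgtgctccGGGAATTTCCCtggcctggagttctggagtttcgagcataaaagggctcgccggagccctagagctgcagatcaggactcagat
Cxcl10: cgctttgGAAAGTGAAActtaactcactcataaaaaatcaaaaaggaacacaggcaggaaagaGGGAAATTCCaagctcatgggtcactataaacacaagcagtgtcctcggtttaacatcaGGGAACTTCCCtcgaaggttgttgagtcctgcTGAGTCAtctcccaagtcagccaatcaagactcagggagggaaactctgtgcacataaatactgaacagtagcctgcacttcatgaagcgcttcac
Cxcl9: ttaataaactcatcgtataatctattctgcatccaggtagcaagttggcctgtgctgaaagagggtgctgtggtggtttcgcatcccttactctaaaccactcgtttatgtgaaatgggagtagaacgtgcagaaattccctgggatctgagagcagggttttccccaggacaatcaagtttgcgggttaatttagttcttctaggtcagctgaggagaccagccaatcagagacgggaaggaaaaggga

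The Cxcl1 promoter held the NF-kB-type letters at GGGAATTTCC, first base 84 bases before the start, with a match on the other strand that overlaps it, and at GGAAACACCC, 102 bases before the start. The Cxcl10 promoter held them at GGGAAATTCC, 187 bases before the start, and at GGGAACTTCC, 128 bases before it and again overlapped by a match on the other strand. It also held GAAAGTGAAA, 243 bases before the start, and TGAGTCA, 96 bases before it. None of the 4 motifs matched in the Cxcl9 window, which says only that these letters are not in these 250 bases. Of the 33469 promoters of the same length, 4.53% held the NF-kB-type letters, 3.41% the interferon response-type letters, 7.67% the interferon gamma-type letters and 6.34% the AP-1-type letters.
RefSeq promoters were matched for 9 of the 10 genes, all but Ccl2. The NF-kB-type letters were also found in those of Cxcl2 (GGGGATTTCC, 74 bases before the start, and GGGCTTTTCC, 54 bases before it), Cxcl11 (GGGAAATTCC, 74 bases before the start) and Ccl7 (GGAAGATCCC on the printed strand, 59 bases before the start). Cxcl11 held TTCTAGGAA at the far end of its window and TGAGTCA 85 bases before the start, and Ccl7 held TGATTCA 73 bases before the start. Cxcl12, Cxcl16 and Cx3cl1 held none of the 4 motifs. These matches are letters in a reference sequence, and no binding was measured.

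In control cultures the genes spanned a wide range of levels. FPKM, the fragments of a gene relative to its length and to the depth of the library, allows levels to be compared between genes. Cx3cl1 was highest at 38.5 ± 0.416 FPKM (SD, n = 3 libraries, as for all means here), followed by Ccl2 at 16.7 ± 2.03 FPKM, and the libraries of these 2 genes did not overlap. Ccl7 (10.9 ± 3.71 FPKM), Cxcl16 (7.78 ± 1.11 FPKM) and Cxcl12 (7.31 ± 0.722 FPKM) came next, and each overlapped with its neighbour in this order. Cxcl1 (5.11 ± 0.578 FPKM) overlapped with Cxcl10 (4.22 ± 1.36 FPKM), and Cxcl10 overlapped with Cxcl9 (2.55 ± 0.575 FPKM). Cxcl2 was at 0.189 ± 0.0681 FPKM, and Cxcl11 was listed at 0 in all 3 control libraries.
With PCT the order was different. Cx3cl1 at 35.0 ± 0.253 FPKM and Ccl2 at 34.1 ± 12.8 FPKM overlapped at the top, Cxcl1 came next at 25.7 ± 8.96 FPKM and then Cxcl10 at 14.7 ± 5.10 FPKM. Cxcl9 was at 0.321 ± 0.0809 FPKM, and its libraries overlapped with those of Cxcl2. In NPCT cultures the first 3 genes by mean were Cx3cl1, Ccl2 and Ccl7 as in controls, but Ccl7 overlapped with Ccl2 and with Cxcl12. In NPCT replicates 1 and 2, Ccl7 (5.38 and 5.74 FPKM) lay below Cxcl12 (6.58 and 7.30 FPKM) and Cxcl16 (5.49 and 6.01 FPKM). The summed FPKM of the 10 genes was 86.6 to 103 per control library, 76.8 to 100.1 per NPCT library and 100.1 to 159 per PCT library.

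**Figure D1:**
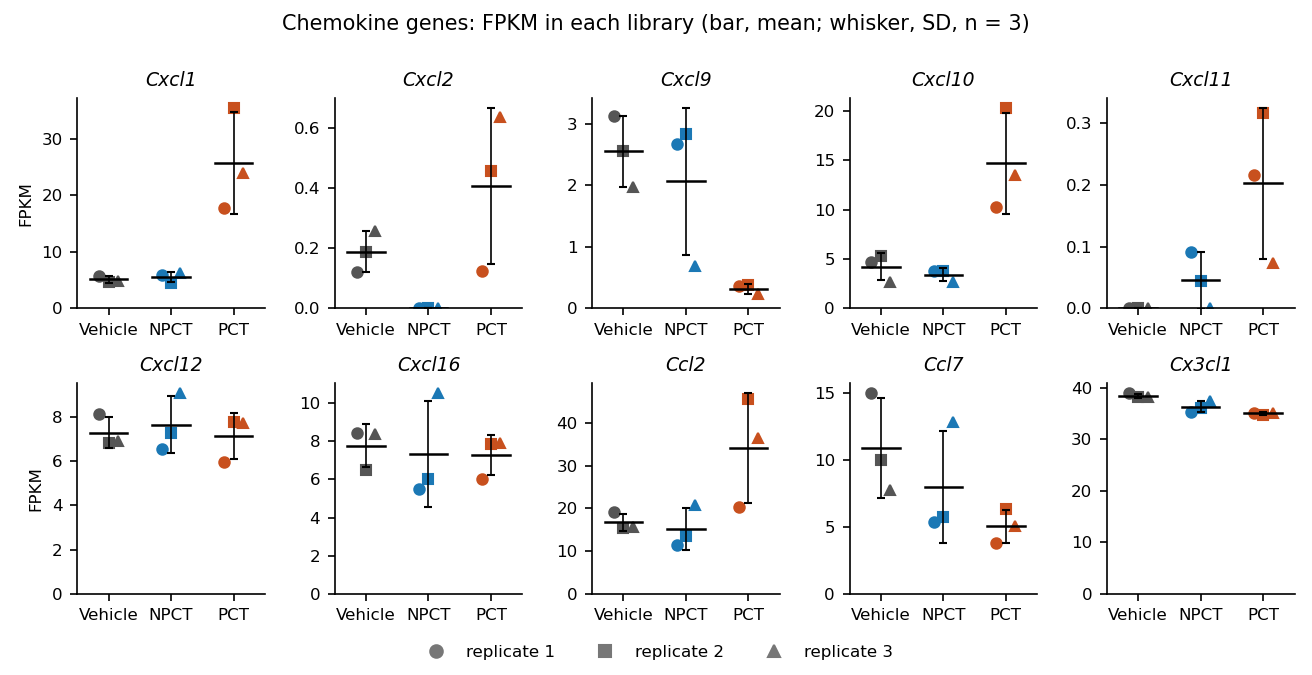
FPKM of each chemokine gene (vertical axes, starting at 0 and scaled per gene) in the vehicle, NPCT and PCT libraries, with symbols for replicates 1 to 3, a bar for the mean and a whisker for the SD (n = 3). Cxcl1 and Cxcl10 lie highest and Cxcl9 lowest in the 3 PCT libraries, and NPCT replicate 3 is lowest in its group for Cxcl9 and Cxcl10 and highest for Cxcl1, Cxcl12, Cxcl16, Ccl2, Ccl7 and Cx3cl1.

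Cxcl1 (ENSRNOG00000002802, chromosome 14 from 18743685 to 18745457, minus strand, Rnor_6.0) measured 5.77, 4.71 and 4.85 FPKM in control replicates 1 to 3. It measured 5.95, 4.44 and 6.15 FPKM in the NPCT replicates and 17.8, 35.4 and 23.9 FPKM in the PCT replicates. All 3 PCT libraries lay above all 6 others, and the control and NPCT libraries overlapped. The log2 fold change of FPKM plus 0.1 was 2.25 for PCT against vehicle (standard error 0.23), or 4.77-fold, and 0.10 for NPCT against vehicle (standard error 0.23). NPCT against PCT it was -2.16 (standard error 0.23). Without PCT replicate 3 the change with PCT was 2.28. Between 59 and 466 fragments per library lay behind these values.

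Cxcl2 (ENSRNOG00000002792, chromosome 14 from 18731378 to 18733391, minus strand), the neighbour of Cxcl1 at 10293 bases and the other Cxcr2 ligand, was near the limit of the depth. It had 2, 3 and 4 fragments in the control libraries, 0 in each NPCT library and 2, 7 and 12 in the PCT libraries. A count of 0 allows up to 3 fragments, which for Cxcl2 is 0.159 to 0.200 FPKM depending on the library. The PCT and control libraries overlapped, and the gene fell below the mean of 0.5 FPKM that a gene needed to enter the fit. Such limits cover counting error only. How fragments shared by the closely related Cxcl1, Cxcl2 and Cxcl3 were assigned is not given in the sources used here.

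Cxcl10 (ENSRNOG00000022256, chromosome 14 from 17210733 to 17212930, plus strand) measured 4.71, 5.27 and 2.68 FPKM in the controls, 3.78, 3.75 and 2.68 FPKM with NPCT and 10.3, 20.3 and 13.5 FPKM with PCT. PCT replicate 2 was the highest library, as for Cxcl1, and the PCT libraries did not overlap with any other. The log2 fold change was 1.78 (standard error 0.30) for PCT against vehicle, or 3.42-fold, -0.26 (standard error 0.30) for NPCT against vehicle and -2.04 (standard error 0.30) for NPCT against PCT. The Art3 gene spans Cxcl10 and Cxcl11 on the opposite strand and had 0 to 8 fragments per library, against 44 to 327 for Cxcl10. Whether counting used strand is not stated.

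Cxcl9 (ENSRNOG00000022242, chromosome 14 from 17228856 to 17234712, plus strand) starts 15925 bases after the end of Cxcl10. It measured 3.13, 2.55 and 1.98 FPKM in the controls, 2.67, 2.84 and 0.691 FPKM with NPCT and 0.360, 0.375 and 0.228 FPKM with PCT. The corresponding fragments were 72, 57 and 43 in controls, 56, 61 and 16 with NPCT and 8, 8 and 6 with PCT. All PCT libraries lay below all others, and NPCT replicate 3 lay below the controls and the other NPCT libraries. The log2 fold change was -2.65 for PCT against vehicle (standard error 0.48), which is 6.29-fold lower, and 2.16 for NPCT against PCT (standard error 0.48). NPCT against vehicle it was -0.49 (standard error 0.48) over all libraries and 0.13 (standard error 0.28) without NPCT replicate 3. Since so few fragments remained with PCT, the size of the fall depended on the pseudocount, at -1.42 with 1 FPKM and -2.96 with 0.01 FPKM.

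Cxcl11 (ENSRNOG00000022298, chromosome 14 from 17195014 to 17198291, plus strand), the other Cxcr3 ligand of this cluster, had 0 fragments in each control library, 2, 1 and 0 with NPCT and 5, 7 and 2 with PCT. It was not tested at these counts, and a count of 0 allows up to 0.110 to 0.138 FPKM. Within the cluster, Cxcl9 made up 39.9%, 32.6% and 42.5% of the summed FPKM of Cxcl9, Cxcl10 and Cxcl11 in the control libraries. Its share was 40.8%, 42.8% and 20.5% with NPCT and 3.31%, 1.79% and 1.65% with PCT. The ratio of Cxcl10 to Cxcl9 was 1.35 to 2.06 in controls, 1.32 to 3.88 with NPCT and 28.6 to 59.3 with PCT. A ratio taken within a library shows unequal change of the 2 genes.

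**Figure D2:**
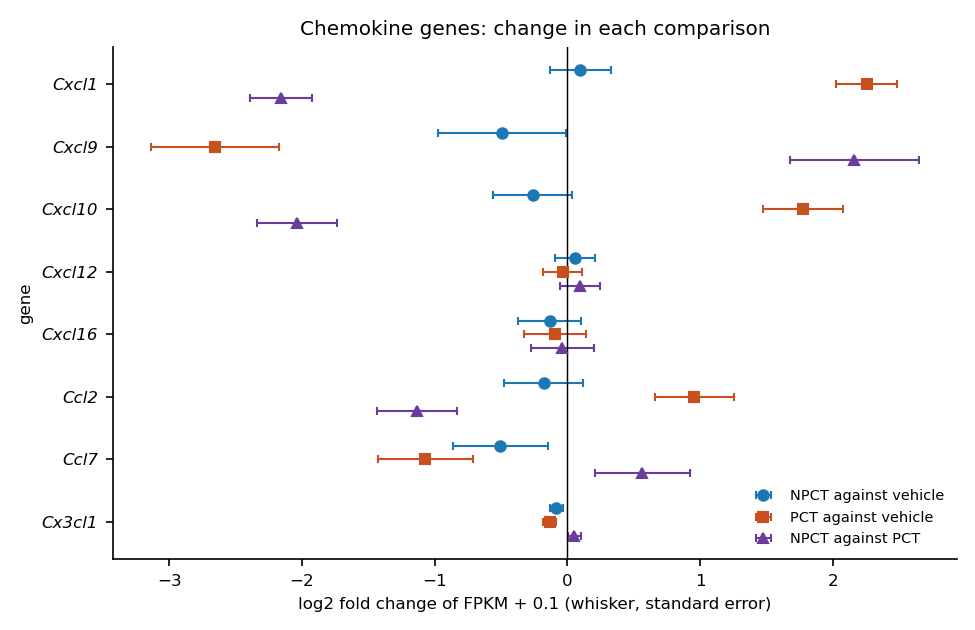
The log2 fold change of FPKM plus 0.1 (horizontal axis, whiskers for the standard error) of the 8 chemokine genes in the fit, for NPCT against vehicle, PCT against vehicle and NPCT against PCT. With PCT, Cxcl1 (2.25) and Cxcl10 (1.78) lie to the right and Cxcl9 (-2.65) to the left, and the NPCT values against vehicle lie between -0.51 and 0.10.

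Ccl2 (ENSRNOG00000007159, chromosome 10 from 69412017 to 69413870, plus strand) measured 19.1, 15.5 and 15.6 FPKM in the controls, 11.4, 13.4 and 20.7 FPKM with NPCT and 20.3, 45.7 and 36.4 FPKM with PCT. PCT replicate 1 was just above the highest control, and it lay below NPCT replicate 3. The log2 fold change was 0.96 (standard error 0.30) for PCT against vehicle, -0.18 (standard error 0.30) for NPCT against vehicle and -1.13 (standard error 0.30) for NPCT against PCT. Ccl7 (ENSRNOG00000000239, chromosome 10 from 69423086 to 69424979, plus strand) lies 9215 bases from Ccl2 and binds the same receptor. It measured 14.96, 9.95 and 7.72 FPKM in the controls, 5.38, 5.74 and 12.8 FPKM with NPCT and 3.81, 6.29 and 5.03 FPKM with PCT. Its PCT libraries all lay below the controls, with a log2 fold change of -1.07 (standard error 0.36), while those of Ccl2 all lay above them.
The ratio of Ccl2 to Ccl7 was 1.27, 1.56 and 2.01 in the control libraries, 2.12, 2.34 and 1.62 with NPCT and 5.34, 7.26 and 7.25 with PCT. The PCT ratios did not overlap with the others. In NPCT cultures both genes were highest in replicate 3, and without it the log2 fold change against vehicle was -0.42 (standard error 0.30) for Ccl2 and -0.90 (standard error 0.29) for Ccl7, against -0.18 and -0.51 with it.

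**Figure D3:**
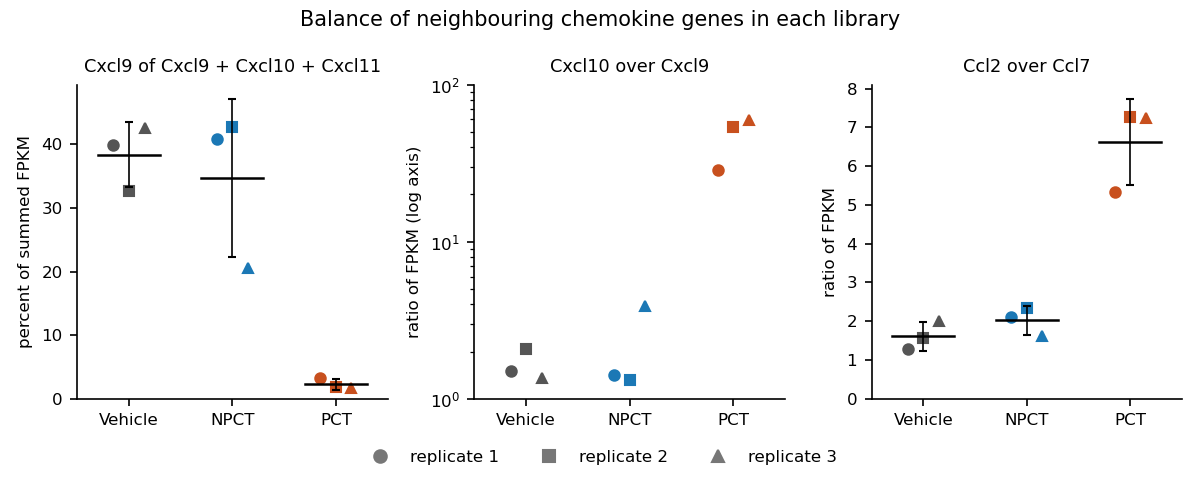
Balance of neighbouring chemokine genes in each library: the percent of the summed Cxcl9, Cxcl10 and Cxcl11 FPKM that is Cxcl9, the ratio of Cxcl10 to Cxcl9 on a log axis, and the ratio of Ccl2 to Ccl7 (bars for the mean and whiskers for the SD, n = 3, on the 2 linear panels). The PCT libraries lie at 1.65% to 3.31%, 28.6 to 59.3 and 5.34 to 7.26, apart from all control and NPCT libraries.

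Cx3cl1 (ENSRNOG00000016326, chromosome 19 from 10644244 to 10653800, minus strand) varied least. It measured 38.9, 38.2 and 38.3 FPKM in the controls, 35.4, 36.0 and 37.5 FPKM with NPCT and 35.2, 34.8 and 35.2 FPKM with PCT. Both peptide groups lay below the controls without overlap, with log2 fold changes of only -0.08 for NPCT and -0.13 for PCT (standard error 0.05 each).
Cxcl12 (ENSRNOG00000013589, chromosome 4 from 149261044 to 149273891, plus strand) ranged from 5.95 to 9.09 FPKM over the 9 libraries, and its groups overlapped in every comparison. Its log2 fold changes were 0.06 for NPCT and -0.04 for PCT against vehicle (standard error 0.15 each). Cxcl16 (ENSRNOG00000026647, chromosome 10 from 57060007 to 57064600, minus strand) ranged from 5.49 to 10.5 FPKM with its highest level in NPCT replicate 3. Its log2 fold changes were -0.13 for NPCT and -0.09 for PCT (standard error 0.24 each), and -0.42 for NPCT without replicate 3. At one end Cxcl16 overlaps Zmynd15 on the opposite strand, which had 4 to 18 fragments per library.

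Of the 8 chemokine genes in the fit, none passed the threshold in limma or in limma-voom for NPCT against vehicle, an adjusted p of at most 0.05 with a fold change above 1.5. With PCT against vehicle 2 were past it as higher and 1 as lower, and for NPCT against PCT 1 as higher and 3 as lower, with Ccl2 as the added gene. In the last comparison Ccl2 was past it in 8 and Cxcl9 in 12 of 17 alternative fits, and with PCT against vehicle Cxcl9 in 13 of 17, while Cxcl1 and Cxcl10 were past it in all 17 in both. Over all 15958 genes tested, 0.15% were called higher and 0.0689% lower with NPCT, 0.589% higher and 1.72% lower with PCT, and 4.38% higher and 1.38% lower for NPCT against PCT. The groups did not overlap in 1, 6 and 4 of the 8 genes in these comparisons, against 40.3%, 24.9% and 33.4% of all genes tested. Nothing is read from these counts, since the genes were chosen on the same contrasts, and the last 2 comparisons share the PCT libraries.

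Genes whose log2 level ran most like that of Cxcl10 over the 9 libraries were Irf1 (Pearson r = 0.971), Tdg (0.971), Tsr1 (0.964), Timp1 (0.961) and Angptl4 (0.961). For Cxcl1 they were Emp1 (r = 0.988), Sipa1l2 (0.980), PVR (0.980), Pa2g4 (0.979) and Rars (0.978). For Cxcl9 they were Trim9 (r = 0.970), Nr2f2 (0.967), Rere (0.967), Tmem229a (0.966) and Sema6a (0.966). All of these share the 9 libraries, and with 3 groups such values mainly follow the group means. The search covered the genes tested, leaving out those with no symbol or only a provisional one, such as a LOC or RGD name. The sizes differed widely, since Trim9 ran from 35.0 to 49.7 FPKM while Cxcl9 ran from 0.228 to 3.13 FPKM.

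Among the receptors of these ligands, Cx3cr1 differed most. This microglial receptor of Cx3cl1 measured 3.44, 2.38 and 2.66 FPKM in the controls, 3.13, 2.73 and 6.40 FPKM with NPCT and 0.508, 0.371 and 0.301 FPKM with PCT. Every PCT library lay below all others, and NPCT replicate 3 was the highest. It fell with PCT by 2.57 on the log2 scale (standard error 0.33, limma with Benjamini-Hochberg adjusted p = 0.00402, at most 0.0268 in 17 alternative fits), and was 8.02-fold higher with NPCT than with PCT on this scale (adjusted p = 0.00145). Its ligand Cx3cl1 stayed between 34.8 and 38.9 FPKM in the same libraries.
Cxcr4, the receptor of Cxcl12, ranged from 10.8 to 15.6 FPKM, and its log2 fold change for NPCT against PCT was 0.23 (95% interval -0.02 to 0.48, limma adjusted p = 0.185). Ackr3, which scavenges Cxcl12, ranged from 2.71 to 4.76 FPKM, with -0.24 (95% interval -0.68 to 0.19, adjusted p = 0.413). Neither was called against vehicle, with adjusted p from 0.405 to 0.915. The leukocyte receptors Cxcr2, Cxcr3 and Cxcr6 had at most 0.264, 0.208 and 0.133 FPKM in any library and were not tested. Ccr2 was not analysed here. Of the 23 receptor genes listed, 21 were found by symbol and 3 were tested. Of these 3, 1, Cx3cr1, was called lower for PCT against vehicle, beside 1.72% of all genes tested.

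The lists of the pathway around these chemokines were drawn up with earlier results of these data known. Of their 77 tested genes, none was called by limma for NPCT against vehicle and none by limma-voom, with 11 at an unadjusted p below 0.05, beside 4671 of all 15958 genes tested. For PCT against vehicle 11 were called, beside 368 of all genes tested, and for NPCT against PCT 15, beside 919. Of 26 other chemokine genes, 8 were tested, and none was called by limma or limma-voom against vehicle with either peptide, with 2 at an unadjusted p below 0.05 for NPCT and 3 for PCT, the latter beside 3017 of all genes tested. Pf4, a platelet and macrophage chemokine, measured 0.450, 1.75 and 3.87 FPKM with NPCT and 0, 0.221 and 0 FPKM with PCT, and was called higher for NPCT (limma adjusted p = 0.0204), but not without NPCT replicate 2, NPCT replicate 3 or PCT replicate 1. These Pf4 levels rested on only 2, 8 and 19 fragments with NPCT and 0, 1 and 0 with PCT. Ccl6 was higher with NPCT than with PCT (2.54 against 0.266 FPKM, adjusted p = 0.0452), a call made in 5 of 17 alternative fits, not in limma-voom, and among those that left out a library only without control replicate 2 or PCT replicate 3. Of the 8 tested genes, Ccl20, the ligand of Ccr6, had control levels of 10.2 to 15.5 FPKM, above its 3.94 to 9.74 FPKM with PCT and its 8.27 to 8.85 FPKM with NPCT, with log2 fold changes of -0.86 and -0.49 that were not called (limma adjusted p = 0.146 and 0.29).

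Of 12 tested genes for enzymes acting on chemokines and for inhibitors of such enzymes, 1 was called lower and 1 higher with PCT. Of all genes tested, 1.72% were called lower and 0.589% higher. Mmp2, a gelatinase able to clip Ccl7 and Cxcl12, measured 22.6, 19.1 and 21.4 FPKM in the controls, 17.6, 20.2 and 23.6 FPKM with NPCT and 4.89, 5.75 and 6.29 FPKM with PCT. Timp1, an inhibitor of such metalloproteinases, measured 70.3, 65.2 and 57.2 FPKM in the controls, 50.5, 50.7 and 51.1 FPKM with NPCT and 122, 153 and 150.1 FPKM with PCT. In both genes the PCT libraries were apart from all others. Mmp2 fell by 1.88 on the log2 scale with PCT (standard error 0.13, limma adjusted p = 0.00021) and Timp1 rose by 1.14 (standard error 0.10, adjusted p = 0.000662). The other 10 genes were not called, among them Adam10 (20.6 to 27.9 FPKM) and Adam17 (7.62 to 9.98 FPKM), the sheddases of Cx3cl1 and Cxcl16.

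Of the cytokines that commonly induce chemokines, Il17a and Ifng were listed at 0 in every library. Tnf, Ifnb1 and Ifna4 were above 0 in 1 library each, at 0.0386, 0.103 and 0.100 FPKM. Il1b, at 0.701 to 1.36 FPKM, had a log2 fold change of 0.04 with PCT (limma adjusted p = 0.967). Among the 15 tested genes of the list of cytokines and their receptors, 1 was called higher and 2 lower with PCT than with vehicle. Beside them, 0.589% of all genes tested were called higher and 1.72% lower. Il1rap, the shared chain of the interleukin-1 receptor, rose from 3.54 to 7.26 FPKM on average (log2 fold change 1.02, standard error 0.15, adjusted p = 0.00885). Il18 fell from 2.83 to 0.827 FPKM (-1.65, standard error 0.24, adjusted p = 0.00731), and so did the TNF receptor Tnfrsf1b, from 1.78 to 0.530 FPKM (-1.61, standard error 0.25, adjusted p = 0.0105), the latter call being lost without control replicate 1 (adjusted p = 0.0593). The toll-like receptor Tlr2 measured 0.806, 1.74 and 1.34 FPKM with PCT, below its 3.23 to 4.07 FPKM in the controls without passing the test (limma adjusted p = 0.0618). It was called for NPCT against PCT (4.35 against 1.29 FPKM, adjusted p = 0.0208), though not without PCT replicate 1. Il6 was below the filter and not tested, at 0.193, 0.202 and 0.491 FPKM with PCT, 0 to 0.128 FPKM in the controls and 0 in the NPCT libraries. Its PCT values rested on 3, 3 and 9 fragments.

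NF-kB is held in the cytoplasm by inhibitors that it induces itself. Its inhibitor gene Nfkbia measured 19.2, 17.0 and 21.0 FPKM in the controls, 16.1, 18.9 and 21.5 FPKM with NPCT and 25.5, 38.4 and 31.2 FPKM with PCT. The PCT libraries lay above the others, with replicate 2 highest as for Cxcl1, Cxcl10 and Ccl2. Nfkbia rose by 0.72 with PCT (log2, standard error 0.16, limma adjusted p = 0.0411) and Nfkb2, the precursor of a subunit, by 0.94 (standard error 0.20, adjusted p = 0.0378). Both calls were lost when any control library, NPCT replicate 1 or 2, or PCT replicate 2 or 3 was left out (adjusted p up to 0.141 and 0.125). These were 2 of the 15 genes of the list, beside 0.589% of all genes tested that were called higher with PCT. The median log2 fold change of the list was 0.25 with PCT, beside a median of 0.0046 over all genes tested, and 0.03 with NPCT. For NPCT against PCT, Nfkbia, Nfkb2 and Nfkbiz were called lower (limma adjusted p = 0.0182, 0.0496 and 0.0194), beside 1.38% of all genes tested. Nfkbia lost the call without NPCT replicate 1 or PCT replicate 2. Nfkbiz lost it without either of these or NPCT replicate 2, and in limma-voom. Nfkb2 kept that call without NPCT replicate 3 or PCT replicate 1 and lost it without any other library.

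Interferon genes gave a mixed picture. Irf1, a transcription factor that acts on the Cxcl9 and Cxcl10 promoters, measured 4.71, 5.05 and 3.71 FPKM in the controls, 4.02, 4.94 and 4.14 FPKM with NPCT and 8.73, 10.3 and 10.1 FPKM with PCT. It rose by 1.10 with PCT (standard error 0.14, limma adjusted p = 0.00391), as did Gbp5, an interferon-induced GTPase (1.24, standard error 0.20, adjusted p = 0.0115), and Rsad2, the antiviral enzyme viperin (1.93, standard error 0.39, adjusted p = 0.0313). Gbp5 lost the call without control replicate 2 or 3 (adjusted p up to 0.0516), and Rsad2 without any control library, NPCT replicate 2, PCT replicate 2 or PCT replicate 3 (up to 0.122). The other 21 of the 24 tested genes were not called with PCT, where 0.589% of all genes tested were called higher. The median log2 fold change of the list against vehicle was 0.34 with PCT and 0.05 with NPCT, and none of its genes was called for NPCT against vehicle. For NPCT against PCT, the same 3 genes, Irf1, Gbp5 and Rsad2, were called lower by limma, beside 1.38% of all genes tested.

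**Figure D4:**
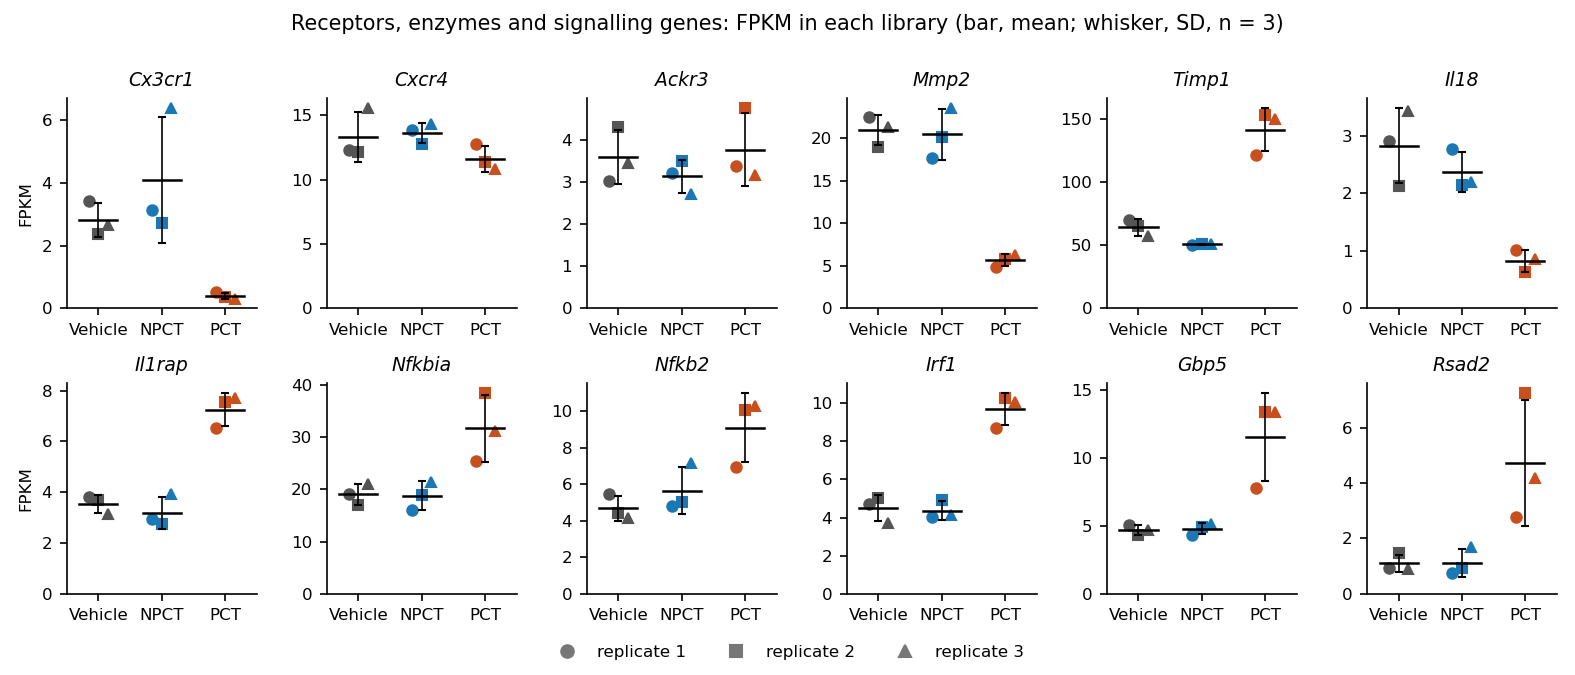
FPKM of 12 receptor, enzyme and signalling genes (vertical axes, starting at 0 and scaled per gene) in the vehicle, NPCT and PCT libraries, with symbols for the replicates, bars for the mean and whiskers for the SD (n = 3). Cx3cr1, Mmp2 and Il18 lie lowest and Timp1, Il1rap, Nfkbia, Irf1, Gbp5 and Rsad2 highest in the 3 PCT libraries.

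Of 9 tested microglial markers, 3 were called lower with PCT against vehicle, beside 1.72% of all genes tested. Aif1, Csf1r and Tyrobp fell by 2.23, 2.22 and 2.12 on the log2 scale (limma adjusted p = 0.0331, 0.0451 and 0.0393), and the other 6 were not called. The Aif1 call was lost without control replicate 1 or 3, PCT replicate 2 or PCT replicate 3. Those of Csf1r and Tyrobp were lost without these and also without control replicate 2, NPCT replicate 1 or PCT replicate 1, and that of Csf1r without NPCT replicate 2 (adjusted p up to 0.164). For NPCT against PCT, 6 of the 9 markers were called higher, beside 4.38% of all genes tested. Aif1, Csf1r and Tyrobp kept that call in all 17 alternative fits, while C1qa, C1qb and Tmem119 did not. The summed level of the list was below that of the controls in all 3 PCT libraries (13.98 ± 1.86 against 32.2 ± 5.19 FPKM, p = 0.1 by an exact permutation test on both sides, which 3 libraries against 3 cannot go below). Cd68 and C1qa, at 2.50 to 3.80 and 2.19 to 4.79 FPKM with PCT, overlapped with the controls, as did P2ry12. In NPCT replicate 3, every marker was the highest of the 9 libraries, C1qa reaching 38.2 FPKM against 3.78 to 5.16 FPKM in controls. NPCT replicates 1 and 2, at 9.69 and 8.78 FPKM of C1qa, also lay above the controls. Of the 8 chemokine genes in the fit, NPCT replicate 3 was the lowest of its group for Cxcl9 and Cxcl10 and the highest for the other 6. Without NPCT replicate 3 the changes with PCT were the same by construction, and Cxcl1 and Cxcl10 differed between NPCT and PCT by -2.24 and -1.88 on the log2 scale against -2.16 and -2.04 with it, and Cxcl9 by 2.78 against 2.16.
Of 7 tested astrocyte markers, Aqp4, Aldh1l1, Slc1a2 and S100b were also called lower with PCT against vehicle, beside 1.72% of all genes tested. They fell by 0.60 to 0.83 on the log2 scale (limma adjusted p = 0.00374 to 0.0393). Of these, Aldh1l1 kept the call in every fit that left out a library, while Gfap was at 899 to 931 FPKM against 734 to 828 FPKM in controls (not called, limma adjusted p = 0.147). For NPCT against PCT, Aldh1l1 and S100b were called higher, also in all 17 alternative fits. The fibroblast gene Col3a1 was called higher with PCT (0.87, adjusted p = 0.0413), though among the fits that left out a library only without PCT replicate 1, and no neuronal or oligodendrocyte lineage marker was called. The oligodendrocyte lineage gene Olig1 was lower with PCT without overlap (log2 fold change -0.51, adjusted p = 0.00161) but short of the 1.5-fold change, and the summed level of its list was 332 to 345 FPKM with PCT against 388 to 406 FPKM in the controls. The part of cell composition in the chemokine levels was not tested.

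**Figure D5:**
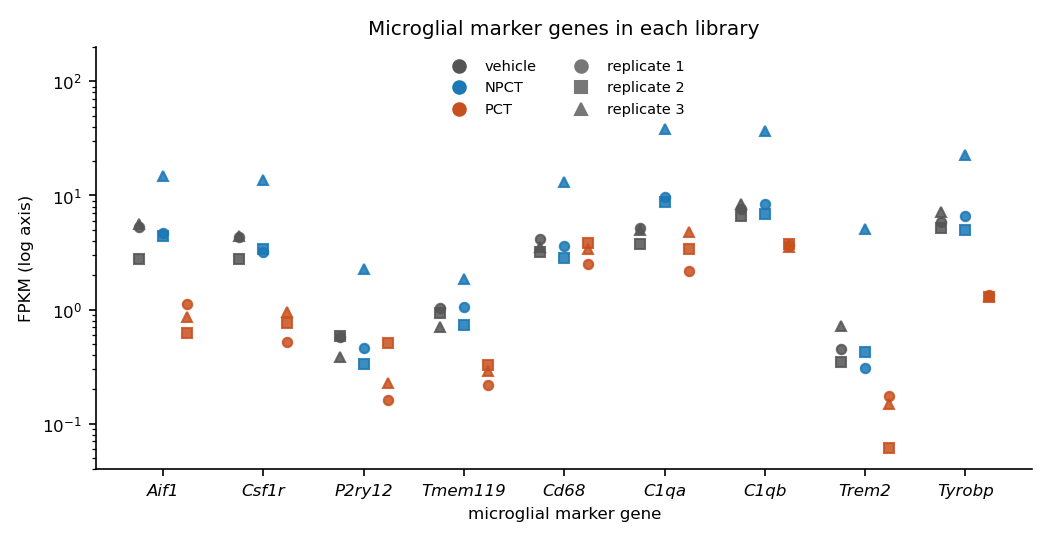
FPKM of 9 microglial marker genes (vertical log axis) in each library, by group (colour) and replicate (symbol). NPCT replicate 3 is the highest library for every marker, and the 3 PCT libraries lie below the controls for 6 of the 9. Over all genes tested, the PCT and control libraries did not overlap, in either direction, for 24.9%.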

How the data were processed

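The authors aligned clean reads of 9 poly-A libraries with Hisat2, counted them with featureCounts and deposited FPKM per gene; the submitters' processing notes give Rnor_6.0 and also StringTie and DESeq2. The replicates were used as 3 libraries per group. FPKM multiplied by gene length and by a depth factor of each library gave whole fragments (within 0.01) in 100% of values, 13573056 to 17211642 per library.

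For the 15958 of 34092 genes whose FPKM averaged 0.5 or more, a limma model (version 3.58.1, R 4.3.3) of log2(FPKM + 0.1) with a mean per group was fitted to all 9 libraries. Benjamini-Hochberg adjustment covered all genes tested, and a call needed both an adjusted p up to 0.05 and a change of more than 1.5-fold. Fold changes are on this scale and understate those of low genes. The fit was tested on simulated data.

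The chemokine genes and gene lists were chosen with earlier results of these data known. Named genes were these 10, the called genes of each pathway list (up to 8), the receptors of the chemokines and the 5 genes most like Cxcl1, Cxcl9 and Cxcl10; others named, such as Ccl20, Il1b and Adam10, were added after their values were seen. Promoters came from RefSeq (GRCr8), whose coordinates are not those of the table. Alternatives were other pseudocounts, filters and normalization, limma-voom on the fragments, a fit of 2 groups, a replicate block and leaving out each library.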

Additional observations from a re-analysis of the deposited data

How the results depend on the processing

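The count of chemokine genes past the threshold was 0 for NPCT against vehicle in all 17 alternative fits and 2 to 4 for PCT against vehicle, where 3 was the value over all libraries. For NPCT against PCT it was 4, and 2 in a fit of only the 2 groups compared and 2 to 4 with 1 library left out. Against vehicle, Cxcl9 dropped out without any control library or PCT replicate 2, and Ccl2 was added without PCT replicate 1. For NPCT against PCT, Cxcl9 dropped out in the fit of 2 groups and without NPCT replicate 1 or 2 or PCT replicate 1 or 2, and Ccl2 in the fit of 2 groups, with no filter (where Cxcl2 entered the fit and was past the threshold) and without any control library, NPCT replicate 1 or 2, or PCT replicate 2 or 3. The counts over all genes moved more. For NPCT against vehicle, 35 genes were called, and 208 with a mean FPKM of at least 1, 9 with no filter, 189 with quantile normalization, 579 in a fit of only the 2 groups, 319 with the replicate block, 391 with limma-voom, and 0 to 562 with 1 library left out (0 without control replicate 3, NPCT replicate 2 or NPCT replicate 3, where limma gave 3763 to 4313 genes an unadjusted p below 0.05, and 562 without PCT replicate 3). For PCT against vehicle, 368 were called, and 172 to 398 with 1 library left out, the lowest without control replicate 1. For NPCT against PCT, 919 were called, 454 in a fit of only the 2 groups, and 525 to 1623 with 1 library left out, the highest without PCT replicate 3. The causes were not tested. The replicate numbers did not pair the libraries (correlation of departures from group means -0.07 to 0.03), and the block called 323 genes for PCT against vehicle, 886 for NPCT against PCT and the same number of chemokine genes. Over the 8 chemokine genes and 3 comparisons, 402 of 408 alternative fold changes moved by less than the replicate SD, and no fold change past the threshold changed sign. Of 441 alternative values for the called pathway genes, 371 kept the call, 70 lost it and none changed sign. Depth limits Cxcl2, Cxcl11 and, with PCT, Cxcl9.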

Other observations

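Of the other chemokine genes under the filter, Ccl22, a macrophage-derived ligand of Ccr4, was listed above 0 in all 6 control and NPCT libraries (0.0747 to 0.356 FPKM, from 2 to 9 fragments) and at 0 in the 3 PCT libraries. Ccl17, which binds the same receptor, was above 0 only in NPCT replicates 1 and 3 (0.507 and 1.15 FPKM, from 2 and 5 fragments). Neither was tested. The NF-kB-type letters GGGNNNTTCC were in the promoters of 9 of 57 genes called higher with PCT against vehicle (15.8%), 13 of 170 called lower (7.65%) and 553 of 10098 tested (5.48%), counting in each case only genes with a matched promoter, out of 94, 274 and 15958. The interferon response-type letters GAAANNGAAA were in 4 (7.02%), 9 (5.29%) and 250 (2.48%) of the same genes. Cxcl1 and Cxcl10 are among the 9 and Cxcl10 is among the 4, and both had been chosen by how they moved with PCT. These shares were computed after the chemokine promoters had been seen, without a test, and nothing is read from them.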
